A study of Mus musculus with 39 samples.

Results

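Estrogen, progesterone and glucocorticoid receptor genes were followed through the mouse gubernaculum and testis after the native Insl3 gene had been replaced or lost. The set held 5 genes, namely Esr1, Esr2, Pgr, Gper1 and Nr3c1, chosen by gene symbol and found in both deposited count tables, which shared 21561 Ensembl genes. The study sequenced 39 mRNA libraries in 13 groups of 3 biological replicates, all from males that received no treatment. Wild-type (WT) mice supplied gubernaculum at postnatal day 8 (P8) and P23 and testis at P8, P23 and P40. INSL3-KI mice, on a C57BL/6J background and homozygous for a minke whale INSL3 coding sequence placed in the mouse Insl3 locus under its own control elements, supplied the same 5 kinds of sample. The line was made in embryonic stem cells and its selection cassette was removed with Cre. INSL3-KO mice, whose construction is not described in the sources used here, supplied gubernaculum at P8 and testis at P8 and P23. The first table held 27 libraries, WT and INSL3-KI apart from the WT P23 testis, and the second held 12, the INSL3-KO libraries and the WT P23 testis. In a comparison that crosses the tables, the table and the genotype cannot be told apart.

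Steroid receptors are transcription factors that bind a circulating hormone, enter or stay in the nucleus and act on target genes with coactivators and corepressors. Esr1 and Esr2 encode estrogen receptors alpha and beta, Pgr encodes the progesterone receptor and is itself a classical estrogen target in reproductive tissues, and Nr3c1 encodes the glucocorticoid receptor. Gper1 encodes a membrane G protein-coupled receptor linked to rapid estrogen signaling. The gubernaculum is the ligament that guides testicular descent under the Leydig cell hormone INSL3 and its receptor RXFP2, and excess estrogen in fetal life is known to disturb descent in rodents. In the testis, ESR1 is known from Leydig and peritubular cells and from the efferent ducts, and the glucocorticoid receptor from several somatic cell types.

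The members lie apart in the genome. In GENCODE M21 on GRCm38, all 5 are protein coding, with Esr1 on chromosome 10 (4611593 to 5005614, plus strand), Esr2 on chromosome 12 (76120419 to 76177259, minus strand), Pgr on chromosome 9 (8899833 to 8968611, plus strand), Gper1 on chromosome 5 (139423151 to 139427800, plus strand), and the position of Nr3c1 is not given here. Esr2 overlaps Gm7862 on the same strand, so its counts are uncertain where reads could belong to either gene. Gper1 lies within 3110082I17Rik on the opposite strand. The strand setting of the count is not given in the sources used here, so reads of that gene and of Gper1 may not be told apart.

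RefSeq promoters of 4 of the 5 members were searched, and the chromosome of Nr3c1 was left out of the search. Esr1 and Pgr are shown because they differed together between the WT ages in the gubernaculum, each as the 250 bases that end just before a RefSeq gene start, 5′ to 3′ on the gene's strand, GRCm38.p6. The Pgr window is chr9:8899583-8899832 (plus strand) and the Esr1 window, before the more downstream of its listed starts, is chr10:4709908-4710157 (plus strand). Capitals mark a match to the glucocorticoid and progesterone single-site motif AGNACA on either strand.
Pgr: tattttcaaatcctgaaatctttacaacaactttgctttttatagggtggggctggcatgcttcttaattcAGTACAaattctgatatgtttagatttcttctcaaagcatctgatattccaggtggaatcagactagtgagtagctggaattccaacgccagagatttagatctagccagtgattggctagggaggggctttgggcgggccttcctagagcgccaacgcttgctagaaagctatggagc
Esr1: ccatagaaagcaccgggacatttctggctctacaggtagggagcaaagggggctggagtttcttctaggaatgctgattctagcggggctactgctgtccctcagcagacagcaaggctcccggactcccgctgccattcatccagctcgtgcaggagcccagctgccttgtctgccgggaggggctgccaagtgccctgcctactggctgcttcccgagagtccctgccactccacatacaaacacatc
The 5 motifs searched on both strands were the estrogen response element (GGTCA, any 3 bases, TGACC), its single-site motif AGGTCA, the glucocorticoid and progesterone response element (GNACA, any 3 bases, TGTNC), the single-site motif AGNACA and the cAMP response element TGACGTCA. The single-site motif AGGTCA can lie within the full estrogen element, as AGNACA can within the other. The Pgr window held 1 match, an AGNACA single-site motif at positions -179 to -174 from the gene start, and 44.7% of the 32851 windows of this length searched also hold one. The printed Esr1 window held no match to any of the 5. The window before its other listed start, chr10:4611739-4611988 (plus strand), held 1 AGNACA match, on the minus strand at positions -160 to -155. Full estrogen elements stood in 0.0639% of the windows searched and cAMP elements in 1.55%. Neither was found in a window of the 4 members searched.

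Libraries held 29861447 to 45260372 counts (median 36944626), and intervals from counts cover counting error only. Mouse Insl3 was read from 2722 to 29799 counts in WT testis and from 15 to 511 in INSL3-KI testis. It was at 0 to 5 counts in the P23 libraries labelled INSL3-KO but at 613 to 906 counts in the P8 testis libraries labelled INSL3-KO, which goes against that label, so those 3 are named by their label here. Rxfp2, the defining receptor of the gubernaculum, was read from 1241 to 1645 counts in WT P8 gubernaculum and from 53 to 67 in INSL3-KI. In INSL3-KO P8 gubernaculum it stood at 415, 434 and 1390 counts, with replicate 3 apart. Skeletal muscle markers (8 genes, summed CPM, counts scaled to the effective library size) spanned 36000 to 39000 in WT and 713 to 1270 in INSL3-KI gubernaculum at P8, and 49800 to 86800 against 13.7 to 933 at P23. Spermatid markers (8 genes) spanned 13400 to 15500 in WT and 13.8 to 15.7 in INSL3-KO testis at P23, and 8160 to 10300 in WT against 10.9 to 37.4 in INSL3-KI testis at P40. Cell makeup differed between the groups compared, and its part in the results was not tested except where a scaling on cell type markers is given. In whole-tissue RNA, fewer cells of a type and less RNA per cell cannot be told apart.

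Esr1 and Nr3c1 were the abundant members and Pgr, Esr2 and Gper1 were sparse (levels in FPKM, fragments per kilobase scaled to library depth, as the authors computed them). Esr1 was highest in WT P23 gubernaculum at 28.7 ± 9 FPKM (SD, n = 3) and lowest in WT P23 testis at 1.11 ± 0.12. All 5 gubernaculum groups, from 13.2 to 28.7, lay above all 8 testis groups, from 1.11 to 6.69. Nr3c1 followed the same split, with 18.7 to 22.9 FPKM in gubernaculum and 1.7 to 12.8 in testis. Pgr reached 2.95 ± 1.44 FPKM in WT P23 gubernaculum and 2.33 ± 2.65 in INSL3-KI P8 gubernaculum and was at most 0.439 in every other group. Esr2 was highest in WT P8 testis at 1.11 ± 0.252 FPKM and was listed at 0 in every WT P8 gubernaculum library. Gper1 ran from 0.0909 to 1.31 FPKM over the 13 groups. With the groups of each gene in order of their mean, the libraries of neighboring groups did not overlap in 6 of 12 pairs for Nr3c1, 4 of 12 for Esr1, 1 of 12 for Esr2 and for Pgr and 0 of 12 for Gper1. The same count was not made over all genes, so these counts describe the order and are no result about the members. Levels that cross the 2 tables were scaled separately by the authors and are side by side only.

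**Figure D1:**
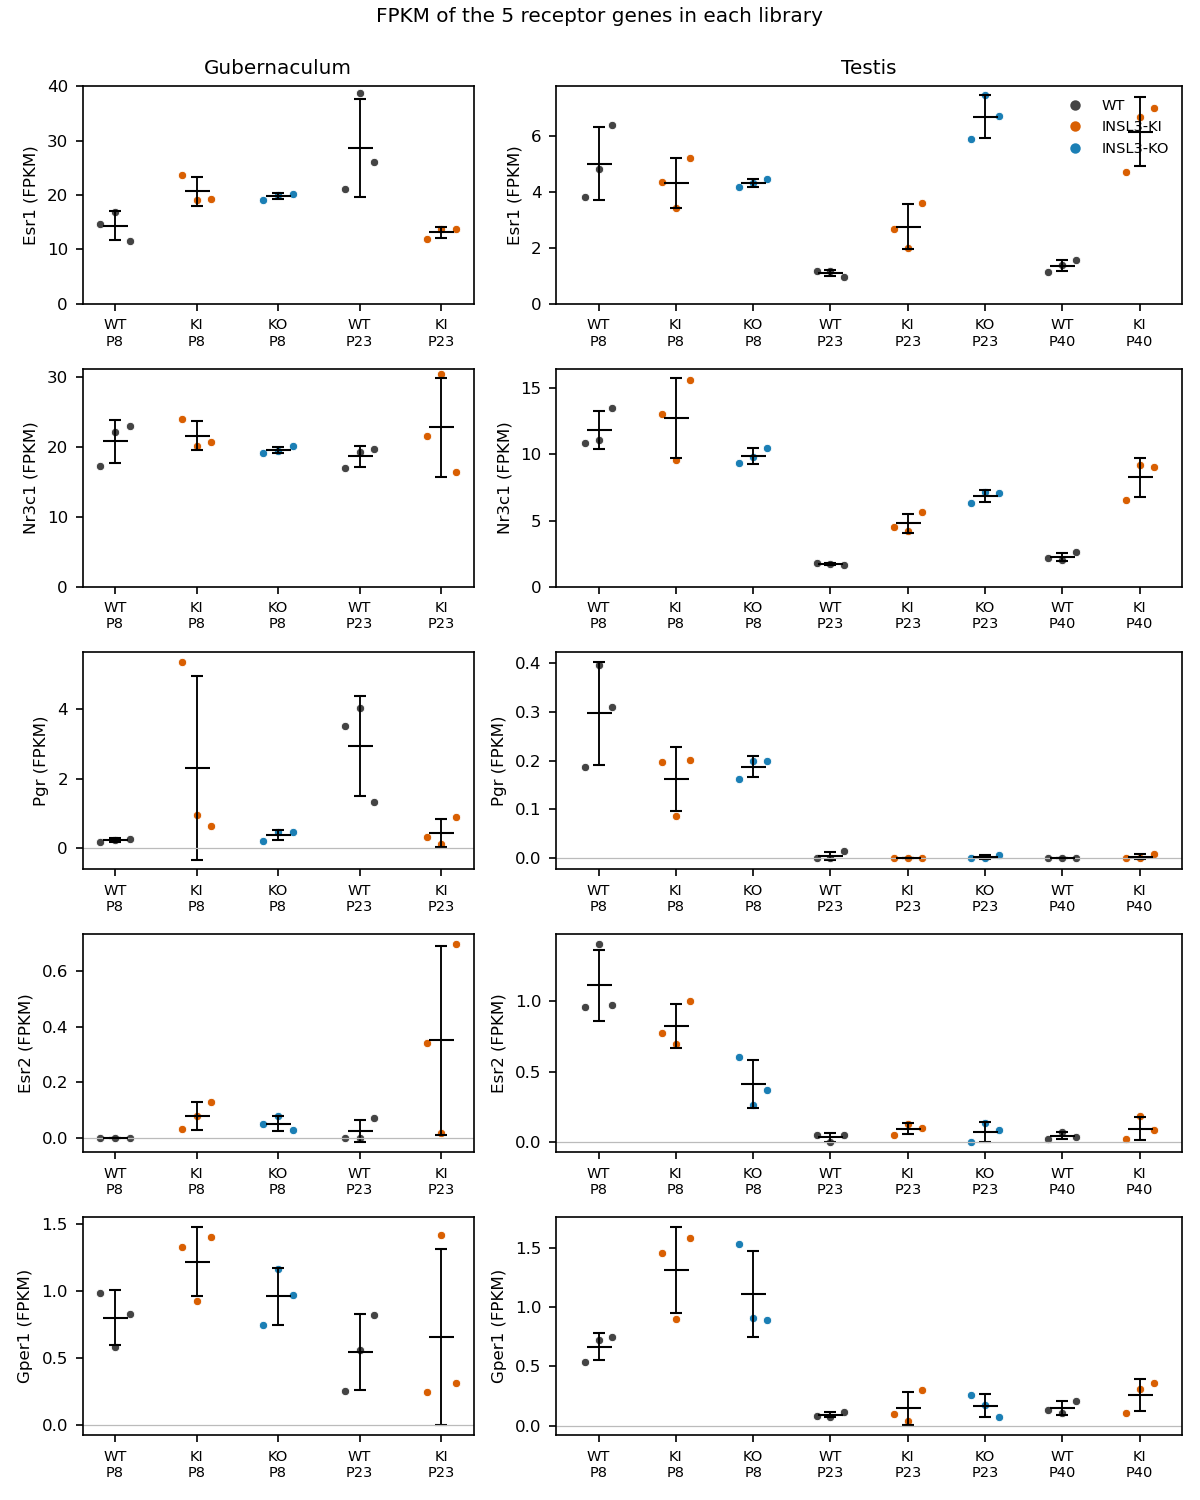
FPKM (y axis, linear, one scale per panel) of each receptor gene in each library (points) of the 5 gubernaculum and 8 testis groups, with the group mean and SD of 3 libraries (bars). Esr1 and Nr3c1 sit higher in gubernaculum than in testis, and Pgr reaches 5.38 FPKM in 1 INSL3-KI P8 gubernaculum library.

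At P8 in WT mice the gubernaculum and the testis differed in 3 of the 5 members, where 60.1% of the 15624 genes tested differed. Esr1 stood at 107, 120 and 80.4 CPM in gubernaculum and 21.3, 27.1 and 36.1 in testis. Those ranges did not overlap, and edgeR's quasi-likelihood test gave a log2 difference of 1.96 (SE 0.23, adjusted p = 0.0003). Nr3c1 stood at 125, 155 and 155 CPM against 56.4, 60.4 and 74.8, again without overlap, with a log2 difference of 1.28 (SE 0.15, adjusted p = 0.0003). Esr2 was read from 111, 186 and 126 counts in testis and from 0 in all 3 gubernaculum libraries. Against a floor of 3 counts per library, its level was at least 33-fold higher in testis. Pgr (log2 difference 0.01, SE 0.4) and Gper1 (0.72, SE 0.35, adjusted p = 0.11) did not pass the threshold, and for Pgr the 95% interval ran from -0.93 to 0.95.

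Between P8 and P23 the WT gubernaculum gained Esr1 and Pgr transcripts, and Nr3c1 did not pass the threshold. The question here was what the receptor set does over the days in which the gubernaculum completes its postnatal work. Esr1 stood at 14.7, 16.9 and 11.6 FPKM at P8 and at 21.2, 38.7 and 26.1 at P23. On normalized counts it rose 2.17-fold (log2 1.12, SE 0.23, adjusted p = 0.0097, edgeR). Pgr was read from 43, 65 and 63 counts at P8 and from 856, 1006 and 342 at P23. It rose 14.3-fold (log2 3.84, SE 0.46, adjusted p = 0.0017), and no P8 library reached the lowest P23 library in either gene. Both passed the study's rule for a differentially expressed gene (DEG, adjusted p below 0.01 and at least 2-fold), which 10.5% of the 14941 genes tested passed. At an adjusted p below 0.05 the share was 35.3%. Without each library in turn the log2 rise ran from 0.88 to 1.25 for Esr1 and from 3.59 to 4.21 for Pgr, with adjusted p of at most 0.041 and 0.013. Nr3c1, at 125, 155 and 155 CPM at P8 and 151, 144 and 145 at P23, gave a log2 difference of 0.01 with a 95% interval from -0.3 to 0.32. Gper1 gave -0.48 (SE 0.46) and Esr2, at 0 to 9 counts, did not pass the filter on low counts. Smooth muscle markers (6 genes) ranged over 1210 to 1600 summed CPM at P8 and 960 to 4140 at P23, and skeletal muscle markers were higher at P23, as given above. Schwann cell markers (4 genes) ranged over 49.3 to 145 at P8 and 415 to 495 at P23, and mesothelium markers (4 genes) over 92.6 to 419 and 414 to 786. Their part in the rise was not tested.

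At P8 the INSL3-KI gubernaculum differed from WT in Pgr alone among the 4 members tested, where 54.7% of the 15500 genes tested differed. Pgr was read from 1292, 211 and 137 counts in INSL3-KI and from 43, 65 and 63 in WT. Every INSL3-KI library lay above every WT library, with replicate 1 far above the other two. The log2 difference was 3.04 (SE 0.78, adjusted p = 0.011, edgeR). Without INSL3-KI replicate 1 it was 1.54, with the same adjusted p of 0.011, and with limma on log2(FPKM + 1) it was 1.16 (adjusted p = 0.055). Esr1 showed 23.7, 19.1 and 19.2 FPKM in INSL3-KI against 14.7, 16.9 and 11.6 in WT. Those FPKM ranges did not overlap, but the log2 difference of TMM-normalized counts was 0.14 (SE 0.18, adjusted p = 0.53), whereas limma on log2(FPKM + 1) gave 0.5 (adjusted p = 0.021). Nr3c1 gave -0.22 (SE 0.12, adjusted p = 0.15) and Gper1 0.27 (SE 0.32). Esr2 was read from 4, 9 and 14 counts in INSL3-KI and from 0 in WT and was not tested.

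INSL3-KO gubernaculum at P8 showed none of the 4 members tested past the threshold against WT (edgeR, adjusted p below 0.05), where 68.7% of the 15609 genes tested passed it. DESeq2 called 2 of 5 members, where it called 62.9% of 17905 genes. At an unadjusted p below 0.05, which at least the same 68.7% of genes pass, edgeR called 1, Esr1. Pgr was read from 61, 151 and 141 counts, which overlap the WT libraries (log2 difference 0.62, SE 0.36, adjusted p = 0.16). Esr1 gave 0.34 (SE 0.14, adjusted p = 0.064). Without WT replicate 2 it was 0.48 (adjusted p = 0.021), and Nr3c1, at -0.14 with all libraries, was -0.24 without WT replicate 1 (adjusted p = 0.0044). Between the mutants, Pgr in INSL3-KI exceeded INSL3-KO by 2.39 (log2, SE 0.82, adjusted p = 0.037), where 64.6% of the genes tested differed. It did not pass without INSL3-KI replicate 1 (0.87, adjusted p = 0.097) or without any 1 of the INSL3-KO libraries (2.11 to 2.57, adjusted p of 0.075 to 0.11). Without that INSL3-KI replicate 1, Esr1 (-0.39, adjusted p = 0.0056) and Nr3c1 (-0.2, adjusted p = 0.034) passed as lower in INSL3-KI. Both comparisons cross the tables. Beside these values, smooth muscle markers spanned 14500 to 18300 summed CPM in INSL3-KI, 6650 to 7030 in INSL3-KO and 1210 to 1600 in WT, and epididymal epithelium markers (8 genes) spanned 728 to 883, 444 to 475 and 15.2 to 39.7. Adipocyte markers (5 genes) spanned 505 to 706 in INSL3-KI, 913 to 988 in INSL3-KO and 0.884 to 2.07 in WT. Their part in the Pgr difference was not tested.

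At P23 Esr1 was lower in INSL3-KI than in WT gubernaculum, whereas at P8 it had not passed in either direction. Esr1 stood at 12, 13.7 and 13.8 FPKM in INSL3-KI against 21.2, 38.7 and 26.1 in WT, without overlap. On normalized counts it fell by 1.41 on the log2 scale (SE 0.22, adjusted p = 0.017), 1 of 4 members tested, where 13.4% of the 15082 genes tested passed. It did not pass without INSL3-KI replicate 1 (-1.39, adjusted p = 0.083). When the libraries were scaled on mesenchyme and fibroblast markers in place of TMM, Esr1 gave 0.43 (adjusted p = 0.59) and Nr3c1 1.8 (adjusted p = 0.037). That scaling moved all genes, whose median log2 difference became 1.92 with 63.8% past the threshold. It shifts all genes nearly alike, so Esr1 lying below their median under both scalings is no separate result. Those markers (7 genes) spanned 3490 to 11300 summed CPM in INSL3-KI and 14200 to 33100 in WT. Adipocyte markers spanned 398 to 11700 in INSL3-KI and 0.408 to 6.62 in WT at this age, and their part was not tested. Pgr was read from 82, 28 and 255 counts in INSL3-KI and from 856, 1006 and 342 in WT. The ranges did not overlap, and the log2 difference of -3.11 (SE 0.81, adjusted p = 0.057) missed the threshold. It passed without INSL3-KI replicate 2 (-2.73, adjusted p = 0.044), without INSL3-KI replicate 3 (-4.05, adjusted p = 0.035) and with DESeq2 (-3.14, adjusted p = 0.0004). Nr3c1 stood at 135, 213 and 95.4 CPM in INSL3-KI, around the 151, 144 and 145 of WT, and its log2 difference of 0.01 had a 95% interval from -0.7 to 0.73. INSL3-KI replicate 2, the highest for Nr3c1 and Gper1 and the lowest for Pgr and Esr2, also stood apart in its epididymal epithelium markers, at 2.03 summed CPM against 1030 and 1620 in the other two.

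The INSL3-KI difference itself changed between the ages in the gubernaculum. For Esr1 the P23 difference minus the P8 difference was -1.58 (log2, SE 0.3, adjusted p = 0.018) and for Pgr it was -6.18 (SE 1.27, adjusted p = 0.023). These were 2 of 5 members, where 6.82% of the 16016 genes tested changed. Esr1 did not pass without WT P8 replicate 3 or INSL3-KI P8 replicate 1 (both -1.44, adjusted p = 0.051 and 0.052). Pgr did not pass without any 1 of the WT P8 libraries (-6.02 to -6.28) or without INSL3-KI P23 replicate 1 (-6.04), with adjusted p of 0.054 to 0.065. Over all single libraries left out, Pgr ran from -7.07 without INSL3-KI P23 replicate 3 (adjusted p = 0.011) to -4.68 without INSL3-KI P8 replicate 1 (adjusted p = 0.049). For Nr3c1 the change was 0.21 (SE 0.33, adjusted p = 0.73).

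**Figure D2:**
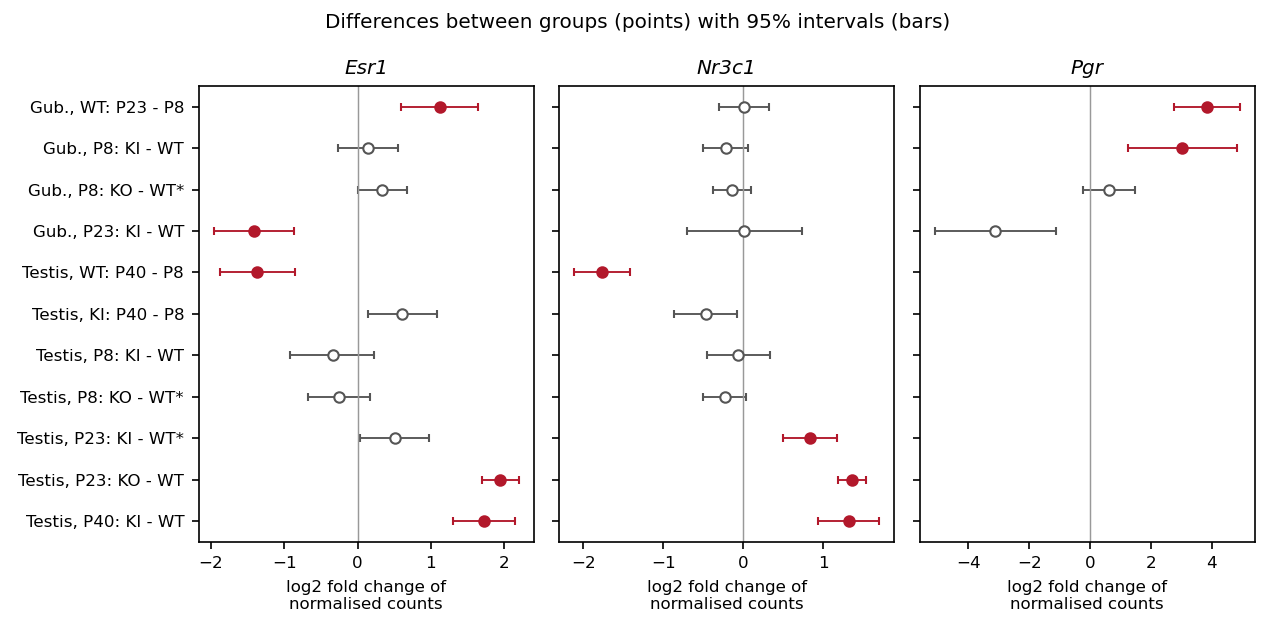
Log2 fold change of normalized counts (x axis, one scale per panel) with its 95% interval for Esr1, Nr3c1 and Pgr in 11 comparisons (rows, with an asterisk where the comparison crosses the tables). Filled red points passed an adjusted p below 0.05 (edgeR) and open points did not. Pgr in testis is left out, since it was at 0 to 3 counts in several groups. In testis, Esr1 lies at 1.95 in the INSL3-KO P23 row and 1.73 in the P40 row, both filled, and at 0.51 in the INSL3-KI P23 row, which is open. It lies at -1.41 in the P23 gubernaculum row.

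In the WT testis all 5 members fell between P8 and P40, while 40.6% of the 16892 genes tested fell and 82.3% changed. Nr3c1 went from 56.4, 60.4 and 74.8 CPM to 17.7, 18.8 and 21.9 and fell by 1.77 on the log2 scale (SE 0.15, adjusted p = 1.4e-05). Esr1 went from 21.3, 27.1 and 36.1 CPM to 11.5, 9.69 and 12.6 and fell by 1.37 (SE 0.22, adjusted p = 0.00058). Esr2 went from 111, 186 and 126 counts to 4, 10 and 6 and fell by 3.72 (SE 0.44, adjusted p = 0.00011). Pgr went from 46, 112 and 85 counts to 0 in all 3 libraries, which was at least 16.8-fold lower against the floor of 3 counts per library. Gper1 fell by 1.4 (SE 0.4, adjusted p = 0.012) but did not pass without WT P40 replicate 2 (-1.19, adjusted p = 0.055). No member overlapped between the ages. The share of all genes without overlap was not counted, so this is no result about the members. Spermatid markers had a median of 2.38 summed CPM at P8 and 10100 at P40, while Sertoli cell markers went from 1410 to 619, peritubular markers from 1120 to 208 and mesenchyme and fibroblast markers from 7890 to 314. Scaled on the Sertoli cell markers, where the median over all genes was 0.27, 4 of the 5 members passed as lower and Gper1 gave -1.13 (adjusted p = 0.073). In the INSL3-KI testis 3 of 5 members fell over the same span, where 14.3% of the 15952 genes tested fell and 25.3% changed. Esr2 (-2.88, SE 0.61, adjusted p = 0.022) and Gper1 (-2.25, SE 0.47, adjusted p = 0.021) were among them. Pgr, read from 50, 20 and 53 counts at P8 and 3 in all at P40, had a ratio of sums of 40.4 (95% counting interval 13.5 to 198). Each of these 3 lost its call without INSL3-KI P8 replicate 1 or replicate 3 and, by gene, without P40 replicate 2 or replicate 3, with adjusted p of at most 0.086. Esr1 gave 0.61 (adjusted p = 0.066) and Nr3c1 -0.47 (adjusted p = 0.079).

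At P8 few members passed the threshold between the testis groups with TMM, which does not show that their levels were alike. Pgr missed the threshold at a log2 difference from WT of -1 in INSL3-KI (SE 0.47, adjusted p = 0.14, edgeR). In the libraries labelled INSL3-KO, Pgr missed it at -0.76 (SE 0.36, adjusted p = 0.11). Against WT, none of 5 passed in INSL3-KI (0 by edgeR and by DESeq2, and 1 at an unadjusted p below 0.05 by edgeR, Gper1), where 36% of the 15702 genes tested did, and 1 of 5 passed in the libraries labelled INSL3-KO, where 54.4% of 15723 did. That gene was Esr2, read from 88, 35 and 50 counts against 111, 186 and 126 in WT (log2 difference -1.43, SE 0.36, adjusted p = 0.012). The ranges did not overlap, the comparison crosses the tables, and with all testis groups in 1 fit the adjusted p was 0.14. Without WT replicate 1, 4 members passed in that comparison, each lower, and the share of all genes in that fit is not given here. Gper1 was at 136, 78 and 153 counts in INSL3-KI against 49, 75 and 75 in WT (0.86, SE 0.33, adjusted p = 0.08) and passed without INSL3-KI replicate 2 (1.05, adjusted p = 0.04). At P8, Sertoli cell markers (10 genes) spanned 1190 to 1570 summed CPM in WT and 1280 to 1440 over both mutants. Leydig cell markers (7 genes) spanned 555 to 676 in WT, 207 to 219 in INSL3-KI and 425 to 439 in the libraries labelled INSL3-KO. In the same order, spermatocyte markers (8 genes) spanned 40.3 to 82.7, 319 to 1490 and 471 to 475. Mesenchyme and fibroblast markers (7 genes) spanned 4800 to 15300, 2150 to 3400 and 3470 to 3550. Their part in the P8 differences was not tested. INSL3-KI and the libraries labelled INSL3-KO differed in none of the 5, where 32.6% of genes tested did (0 by edgeR and by DESeq2, and 1 at an unadjusted p below 0.05 by edgeR, Esr2). Nr3c1 passed there without INSL3-KI replicate 2 (0.27, adjusted p = 0.0069). Scaled on the Sertoli cell markers, whose median log2 difference from WT was 0.74 in INSL3-KI and 1.09 in the libraries labelled INSL3-KO, 4 of 5 members passed as lower in each, all but Gper1. That scaling moved the median of all genes to -1.14 and -1.17, with 73% and 78.8% of genes past the threshold. Esr1 was then -1.53 (adjusted p = 0.0048) and -1.45 (adjusted p = 0.0018), and Nr3c1 -1.23 (adjusted p = 0.0045) and -1.4 (adjusted p = 0.0006).

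At P23 and P40 Esr1 and Nr3c1 were higher per library in the mutant testis than in WT. At P40, Esr1 stood at 4.73, 6.69 and 7.01 FPKM in INSL3-KI against 1.15, 1.4 and 1.55 in WT, and Nr3c1 at 6.53, 9.2 and 9.05 against 2.15, 1.99 and 2.61. Neither gene overlapped between the groups. INSL3-KI replicate 1, the lowest for both genes, stood apart from replicates 2 and 3. The chi-square of counts per gene was 305 and 300 against them and 10.9 between them. Without each library in turn the log2 difference was 1.63 to 1.85 for Esr1 and 1.24 to 1.43 for Nr3c1. On normalized counts Esr1 rose 3.32-fold (log2 1.73, SE 0.18, adjusted p = 0.00043) and Nr3c1 rose 2.49-fold (1.32, SE 0.16, adjusted p = 0.00067). Both were DEGs, as were 47.7% of the 16677 genes tested, and 77% passed an adjusted p below 0.05. Gper1 gave 0.1 (SE 0.52) and Esr2 and Pgr did not pass the filter on low counts. At P23, INSL3-KO testis gave Esr1 at 5.9, 7.45 and 6.71 FPKM against 1.19, 1.16 and 0.968 in WT, and Nr3c1 at 6.34, 7.18 and 7.09 against 1.8, 1.68 and 1.63. The log2 rises were 1.95 (SE 0.11, adjusted p = 5.6e-08) and 1.36 (SE 0.08, adjusted p = 5.5e-08), both DEGs, where 64.4% of the 16732 genes tested were DEGs and 88.4% passed an adjusted p below 0.05. INSL3-KI testis at P23, which crosses the tables, gave 2.67, 2 and 3.62 FPKM for Esr1 (log2 difference 0.51, SE 0.2, adjusted p = 0.066) and 4.5, 4.23 and 5.63 for Nr3c1, which rose by 0.83 (SE 0.14, adjusted p = 0.005), where 50.7% of genes tested changed. Esr1 passed there without INSL3-KI replicate 3 (0.34, adjusted p = 0.047). That library also stood apart, with a chi-square per gene of 261 and 334 against replicates 1 and 2, and 21.7 between those. INSL3-KI lay below INSL3-KO at P23 for Esr1 (-1.39, SE 0.18, adjusted p = 0.00087) and Nr3c1 (-0.48, SE 0.13, adjusted p = 0.016), where 65.6% of genes tested differed. The Nr3c1 call was lost without INSL3-KI replicate 1 or 2 or INSL3-KO replicate 2 or 3 (-0.42 to -0.46, adjusted p of 0.052 to 0.075).

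These rises were measured beside a large change of cell makeup. At P40 the median log2 difference from WT was 2.29 over the Sertoli cell markers, 1.52 over the peritubular markers, 1.12 over the Leydig cell markers and -9.1 over the spermatid markers, against 0.09 over all genes. At P23 in INSL3-KO the same medians were 2.74, 1.75, 1.68 and -11.87, against 0.06. Scaling the libraries on the Sertoli cell markers in place of TMM moved the median of all genes to -2.18 at P40 and to -2.57 at P23 in INSL3-KO, with 86.7% and 91.2% of genes past the threshold. Both receptor genes took a negative sign on that scale. The scaling shifts all genes nearly alike, so their place above those medians was carried over from TMM and is no separate result. At P40 Esr1 was then -0.58 (adjusted p = 0.0094) and Nr3c1 -0.99 (adjusted p = 0.00082), and at P23 in INSL3-KO they were -0.68 (adjusted p = 0.00024) and -1.28 (adjusted p = 1.5e-07). For INSL3-KI at P23, where the median of all genes was -1.05, Nr3c1 was -0.33 (adjusted p = 0.35), and for INSL3-KI against INSL3-KO at P23, where it was 1.46, Esr1 was 0 and Nr3c1 0.95 (adjusted p = 0.022). The INSL3-KI difference grew from P8 to P40 by 1.99 for Esr1 (log2, SE 0.33, adjusted p = 0.00046) and by 1.3 for Nr3c1 (SE 0.25, adjusted p = 0.0012), 2 of 5 members, where 66.9% of the 17354 genes tested changed. On the Sertoli cell scale these were 0.95 (adjusted p = 0.089) and 0.24 (adjusted p = 0.61), against a median of -1.07 over all genes.

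**Figure D3:**
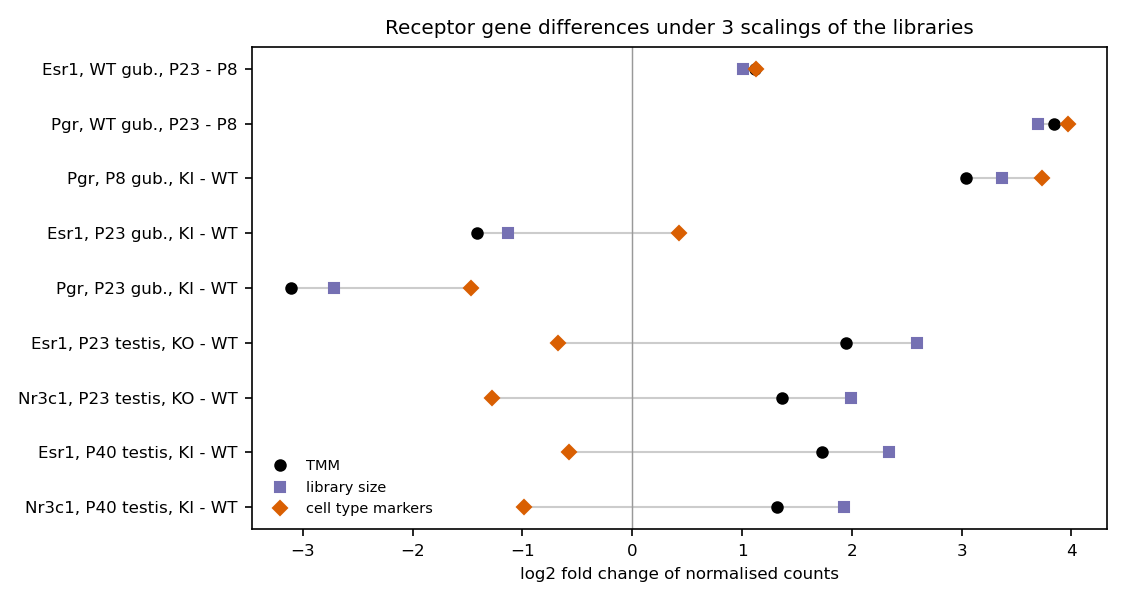
Log2 fold change of normalized counts (x axis) for 9 receptor gene differences (rows) under TMM (circles), library size alone (squares) and scaling on cell type markers (diamonds; mesenchyme and fibroblast markers in gubernaculum, Sertoli cell markers in testis). The WT gubernaculum age differences hardly move, whereas the 4 testis rows pass from above 0 to below 0, as with Esr1 at P40 from 1.73 to -0.58, where the median of all genes moved from 0.09 to -2.18.

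**Figure D4:**
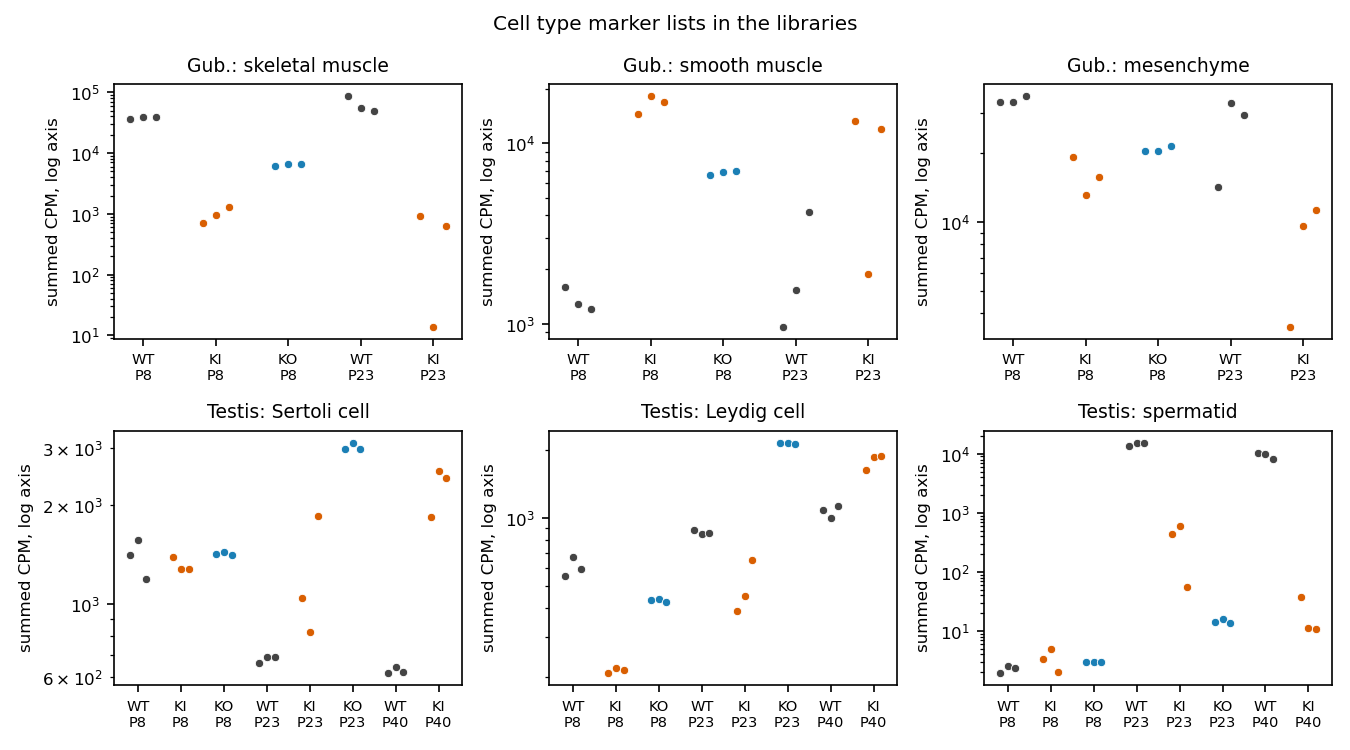
Summed CPM (y axis, logarithmic) of cell type marker lists in each library (points; gray WT, orange INSL3-KI, blue INSL3-KO) of the gubernaculum (upper row) and testis (lower row) groups. Skeletal muscle markers drop from 36000 to 39000 in WT to 713 to 1270 in INSL3-KI at P8, and spermatid markers at P40 from 8160 to 10300 to 10.9 to 37.4.

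The ratio of Esr1 to Nr3c1 FPKM, taken within a library, does not depend on how libraries are scaled. In WT gubernaculum it was 0.706 ± 0.178 at P8 and 1.52 ± 0.416 at P23 (SD, n = 3), and the libraries did not overlap (0.506 to 0.849 against 1.25 to 2). In INSL3-KI gubernaculum it was 0.952 ± 0.0312 at P8 and 0.613 ± 0.199 at P23. At P8 all 3 INSL3-KI libraries, 0.926 to 0.987, lay above all 3 WT libraries. So did the INSL3-KO libraries at P8, 0.998 to 1.03, in a comparison that crosses the tables. At P23 all 3 INSL3-KI libraries, 0.449 to 0.835, lay below all 3 WT libraries. In testis at P40 it was 0.742 ± 0.0276 in INSL3-KI and 0.611 ± 0.0864 in WT, again without overlap (0.724 to 0.774 against 0.534 to 0.705). At P23 it was 0.972 ± 0.0586 in INSL3-KO, 0.57 ± 0.0871 in INSL3-KI and 0.647 ± 0.0482 in WT, where only INSL3-KO lay apart from the others. The ratios are given as a description with no test, since 3 libraries against 3 allow an exact permutation test no p below 0.1.

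**Figure D5:**
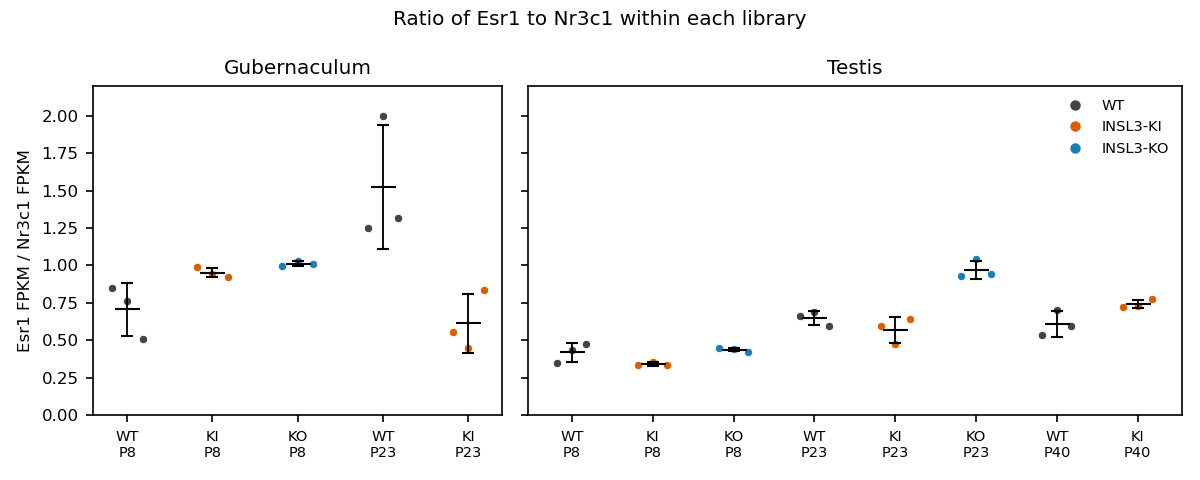
Ratio of Esr1 to Nr3c1 FPKM (y axis) in each library (points) with the mean and SD of 3 libraries (bars). WT gubernaculum rises from 0.706 to 1.52 between P8 and P23 and INSL3-KI gubernaculum lies at 0.613 at P23, and INSL3-KO P23 testis is the highest testis group at 0.972.

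Among genes that these receptors are known to drive, most of the glucocorticoid response list was higher in the WT gubernaculum at P23, an age comparison in which Nr3c1 did not pass. Of its 20 genes tested, 14 were higher and 2 lower at P23 than at P8, where 18.3% of all genes were higher and 17% lower, with a median log2 difference of 1.31 against 0 over all genes. Leaving out each library in turn gave 13 to 14 higher. The lists here and below were chosen with earlier results of these data known. Their counts beside the share of all genes are therefore a description only. Tsc22d3, which encodes the anti-inflammatory protein GILZ, rose by 2.8 (SE 0.3, adjusted p = 0.0013). Pdk4, which restrains glucose oxidation, rose by 2.37 (SE 0.23, adjusted p = 0.00095), and Lcn2, an iron-binding acute-phase protein, by 2.7 (SE 0.56, adjusted p = 0.0099). Fkbp5, a chaperone that limits receptor activity, rose by 1.54 (SE 0.21, adjusted p = 0.0026), and Zbtb16 by 2 (SE 0.44, adjusted p = 0.012), whereas the clock gene Per1 fell by 0.62 (SE 0.15, adjusted p = 0.019). Hsd11b1, whose enzyme regenerates active glucocorticoid, rose by 2.72 (SE 0.22, adjusted p = 0.00064), and Abcb1a, which encodes an efflux pump for steroids, by 1.89 (SE 0.2, adjusted p = 0.0012). Hsd11b2, which inactivates glucocorticoid, gave -0.5 (adjusted p = 0.26). Of the 14 receptor chaperone genes tested 6 fell and 0 rose, among them Hsp90aa1 by 1.39 (SE 0.18, adjusted p = 0.002). The estrogen response list was split, with 4 higher and 4 lower of 19 tested. Greb1, an estrogen receptor cofactor and target, rose by 2.27 (SE 0.45, adjusted p = 0.0089), Wisp2 by 6.19 (SE 1.16, adjusted p = 0.0073) and the keratin Krt18 by 2.19 (SE 0.33, adjusted p = 0.0036). Of 11 progesterone response genes tested 4 rose and 0 fell, among them Msx1 by 1.36 (SE 0.19, adjusted p = 0.0027). Of 19 coactivators 1 rose and 5 fell, with Ncoa1 down by 1.49 (SE 0.17, adjusted p = 0.0016), and of 11 corepressors 0 rose and 1 fell, with Nrip1 at 0.28 (adjusted p = 0.22). Of 10 related receptor genes 3 rose and 1 fell, and Nr3c2 (-0.32) and Pgrmc1 (-0.06) did not pass. Of 10 genes of estrogen and progestin synthesis and breakdown 2 rose and 3 fell, and of 5 genes of glucocorticoid activation and supply 3 rose and 0 fell.

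In the P8 gubernaculum, 9 of 13 progesterone response genes tested were higher and 0 lower in INSL3-KI (28.9% of all genes were higher), with a median log2 difference of 2.01, and 8 were higher and 2 lower in INSL3-KO (35.4% higher), with a median of 1.79. Without each library in turn the counts higher were 7 to 9 and 8 to 9. Gata2, a transcription factor that acts with the progesterone receptor in uterus, rose by 3.66 (SE 0.1, adjusted p = 1.6e-07) in INSL3-KI and by 2.29 (SE 0.08, adjusted p = 1.4e-06) in INSL3-KO. Lrp2, an endocytic receptor gene, rose by 2.9 (SE 0.53, adjusted p = 0.0021) and Msx1, a homeobox gene, by 2.38 in INSL3-KI (SE 0.15, adjusted p = 7.5e-06). Several estrogen response genes with the largest rises are epithelial, as Ltf (9.87 in INSL3-KI, 7.93 in INSL3-KO), Gata3 (7 and 5.25) and Krt18 (4.49 and 3.45), and epididymal epithelium markers were higher in the same libraries, where 7 of 7 tested rose in INSL3-KI. Their part was not tested. Counts for the whole estrogen list were 6 higher and 3 lower of 18 in INSL3-KI and 10 and 4 in INSL3-KO. Greb1 fell by 1.73 (SE 0.62, adjusted p = 0.045) in INSL3-KI and by 1.29 (SE 0.23, adjusted p = 0.0021) in INSL3-KO. On the supply side, Hsd11b1 rose by 1.43 and 2.56, Hsd11b2 fell by 1.16 and 1.07 and Nr3c2, the mineralocorticoid receptor gene, fell by 1.64 and 1.6, with adjusted p of at most 0.0047. Cyp1b1, which hydroxylates estrogen, rose by 7.82 (SE 0.24, adjusted p = 2.4e-07) and 7.18 (SE 0.19, adjusted p = 8.7e-07). The membrane progesterone-binding gene Pgrmc1 rose by 1.29 in both. The glucocorticoid response list had 8 higher and 4 lower of 20 in INSL3-KI and 9 and 7 in INSL3-KO. Tsc22d3 rose by 1.63 (SE 0.06, adjusted p = 2e-06), Fkbp5 by 0.53 (SE 0.08, adjusted p = 0.00069), and Per1 and Zbtb16 fell by 2.52 and 2.3 in INSL3-KO, whereas none of these 4 passed in INSL3-KI (0.44, 0.71, -0.78 and 0.73). The direct comparison of the mutants in these genes is not given here, so no difference between the mutants is claimed. Cdkn1a, a cell cycle inhibitor gene, fell by 4.12 (SE 0.3, adjusted p = 1.5e-05) and 3.35 (SE 0.09, adjusted p = 7.8e-07). Of 14 chaperone genes 1 rose and 9 fell in INSL3-KI and 3 rose and 7 fell in INSL3-KO, where 25.8% and 33.3% of all genes fell, of 19 coactivators 4 and 6, and 4 and 7, and of 11 corepressors 0 and 4, and 2 and 6. Under mesenchyme and fibroblast scaling the estrogen list in INSL3-KI had 14 higher and 1 lower, with a median of 1 against 0.84 over all genes, of which 72.8% passed. At P23, INSL3-KI gubernaculum had 0 higher and 1 lower of 19 estrogen response genes, and Greb1 gave -5.04 (SE 1.38, adjusted p = 0.064), whereas with mesenchyme and fibroblast scaling 14 were higher and 1 lower, with a median of 2.34 against 1.92 over all genes. The progesterone list at P23 had 1 higher and 1 lower of 13 and the glucocorticoid list 0 and 1 of 20, which became 9 and 0 and 11 and 0 under that scaling, with medians of 2.49 and 1.67 against the same 1.92. Of all 15082 genes tested at P23, 63.8% passed in either direction under that scaling and 13.4% with TMM.

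In the mutant testis most estrogen and glucocorticoid response genes were higher per library, as Esr1 and Nr3c1 were. Whether a list follows its receptor was not tested. Of 11 progesterone response genes tested, 7 were higher and 3 lower at P23 in INSL3-KO (44.4% of all genes were higher). At P40 in INSL3-KI 5 were higher and 1 lower (40.4% higher). Their median log2 differences were 2.72 and 2.31, against 1.54 and 1.57 for the estrogen list. Under Sertoli cell scaling 3 were higher and 4 lower at P23 and 0 and 4 at P40, with medians of 0.09 and 0.02. Pgr was at 0 to 4 counts in these groups. At P23 in INSL3-KO, 17 of 18 estrogen response genes tested were higher and 1 lower, and 17 of 20 glucocorticoid response genes were higher and 3 lower, where 44.4% of all genes were higher and 44% lower. At P40 in INSL3-KI the counts were 15 higher and 0 lower of 18, and 13 and 1 of 20, where 40.4% of all genes were higher and 36.6% lower. Without each library in turn the estrogen counts were 15 to 17 and 12 to 14 higher. Under Sertoli cell scaling they were 2 higher and 14 lower at P23 and 0 higher and 9 lower at P40, with medians of -1.09 and -0.74 against -2.57 and -2.18 over all genes. The glucocorticoid counts were 2 and 16 and 0 and 14, with medians of -0.99 and -0.84. Igfbp4, an IGF-binding protein, rose by 3.09 (SE 0.05, adjusted p = 5.9e-12) at P23 and 2.88 (SE 0.32, adjusted p = 0.00052) at P40 with TMM, and Cebpd, a stress-responsive transcription factor, by 3.3 (SE 0.09, adjusted p = 1.2e-10) and 2.33 (SE 0.32, adjusted p = 0.001). Sult1a1, a sulfotransferase gene, rose by 2.87 (SE 0.08, adjusted p = 2.1e-10) and 2.33 (SE 0.24, adjusted p = 0.00043), Zbtb16 by 2.11 and 2.42, Tsc22d3 by 2.17 and 1.6 and Fkbp5 by 1.67 and 1.48, whereas Per1 fell by 0.43 at P23 and gave -0.15 at P40. Greb1 rose by 1.22 and 1.43, the corepressor Nrip1 by 1.52 and 1.32 and Pgrmc1 by 2 and 1.58. Cyp19a1, which encodes aromatase and makes estrogen, is also a germ cell transcript in testis and fell by 5.82 (SE 0.52, adjusted p = 2.2e-06) and fell by 3.69 (SE 0.62, adjusted p = 0.0024). Paqr5, a membrane progestin receptor gene, fell by 7.5 (SE 0.23, adjusted p = 4.2e-10) and 7.86 (SE 0.15, adjusted p = 1.9e-05). Hsd11b1 and Hsd11b2 rose by 1.34 and 2.15 at P23 and gave 1.16 and 1.26 without passing at P40. Of 14 chaperone genes 3 rose and 9 fell at P23 and 3 and 5 at P40, of 19 coactivators 9 and 10, and 8 and 9, and of 11 corepressors 7 and 4, and 6 and 2. The WT testis from P8 to P40, which shares its P40 libraries with the P40 comparison, had 14 of 18 estrogen response genes lower and 1 higher, where 40.6% of all genes were lower, Greb1 fallen by 3.73 (SE 0.18, adjusted p = 7.5e-07), Cyp19a1 risen by 5.44 (SE 0.51, adjusted p = 2.8e-05) and Paqr5 risen by 7.15 (SE 0.35, adjusted p = 7e-07). Of the 20 glucocorticoid response genes 5 were higher and 9 lower there, and of 12 progesterone response genes 0 and 8.

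The genes whose log2 CPM was closest to that of each member with a mean of at least 1 CPM are given as a description over libraries that share their group, depth and table. Both searches cross the tables. Over the 15 gubernaculum libraries Esr1 lay closest to Abi3bp and Tmem98 (both r = 0.895) and Nxnl2 (0.874), Pgr to Pcnx2 (0.904), Pik3ip1 (0.893) and Vldlr (0.89), Gper1 to Gnb4 (0.872), Inka1 (0.87) and Tpst1 (0.867), and Nr3c1 to Capn2 (0.942), Stx2 (0.933) and Trabd2b (0.926). Within the 12 of the first table, only Tmem98 for Esr1, Vldlr for Pgr and Gnb4 for Gper1 were again among the 3 closest. Over the 24 testis libraries Esr1 lay closest to the lysosomal protease gene Ctsb (0.975) and the complement genes C1s1 (0.97) and C1ra (0.969), Nr3c1 to Tmem245 (0.986), Thap12 and Sgpl1 (both 0.984), and Gper1 to Sox10, Crybg1 (both 0.908) and Prdm16 (0.898). For Esr2 they were Ebf4 (0.937), Skil (0.883) and Mcm10 (0.882). Within the 15 of the first table, Ctsb for Esr1 and all 3 for Gper1 were again among the closest, and none of those for Nr3c1 and Esr2 was.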

How the data were processed

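The authors isolated total RNA with TRIzol, made mRNA libraries, sequenced 150 bp paired ends and, per the labels, aligned reads with HISAT2 to GRCm38. Their 2 deposited tables give raw counts and FPKM per gene. The counting program and its strand setting are not given in the sources used here. Columns of the authors' own comparisons were not used. Samples were grouped by their labels. The tables were joined on Ensembl ID, and comparisons that cross them carry both the table and the genotype.

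Counts were tested with edgeR 4.0.16 (quasi-likelihood, TMM, filterByExpr at 10 counts and 15 in all, R 4.3.3) on the libraries compared, with p-values adjusted by Benjamini-Hochberg across every gene in the test. A gene rose or fell at an adjusted p below 0.05, and a DEG had an adjusted p below 0.01 and at least a 2-fold change. CPM are TMM-normalized. Levels use the deposited FPKM, scaled per table by the authors. The floor was 3 counts per library. Patterns were compared by Pearson's r of log2 CPM among genes with a mean of at least 1 CPM. Alternatives were DESeq2 1.42.0, library size, no filter, all groups of a tissue in 1 fit, limma 3.58.1 on log2(FPKM + 1) and log2(FPKM + 0.1), a replicate block, scaling on Sertoli cell markers and each library left out. Scaling on mesenchyme and fibroblast markers and the list counts under alternatives were chosen after seeing the data. The code was tested on simulated data. The members and the gene lists were chosen with earlier results of these data known. Named genes are the members, the 3 most similar genes, up to 3 DEGs of the largest change in a list and a fixed set that includes Fkbp5, Tsc22d3, Per1, Zbtb16, Greb1, Cyp19a1, Hsd11b1, Hsd11b2, Nr3c2, Pgrmc1 and Nrip1. Other genes were named after their values were seen. Where the labels name biological replicates, no source says which animals were pooled, so p-values measure the spread between these libraries. No library was a copy of another (lowest chi-square per gene 4.28 over 39 pairs). Gene positions are from GENCODE M21.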

Additional observations from a re-analysis of the deposited data

Results flagged for a closer look

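The INSL3-KI difference from WT in the gubernaculum changed between P8 and P23 in 2 members by edgeR's interaction test, with Esr1 at -1.58 (log2, adjusted p = 0.018) and Pgr at -6.18 (adjusted p = 0.023). In the testis it changed between P8 and P40, with Esr1 at 1.99 (adjusted p = 0.00046) and Nr3c1 at 1.3 (adjusted p = 0.0012). For 3 further pairs, every INSL3-KI library lay on one side of WT in CPM in one tissue and on the other side in the other, and the difference between tissues was not tested. These were Esr1 in P23 gubernaculum less that in P40 testis (-3.14), Esr1 in P23 gubernaculum less that in P23 testis (-1.92) and Pgr in P8 gubernaculum less that in P8 testis (4.04). For Pgr in P8 testis the separation was narrow (1.1 CPM in the highest INSL3-KI library, 1.15 in the lowest WT library), and in FPKM the libraries overlapped.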

How the results depend on the processing

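Pairing by replicate number was not borne out, since in 0 of 15 comparisons were all same-numbered correlations above 0.1 (lowest -0.49, highest 0.51). Over the settings tried, 489 gene values kept direction and side of the threshold, 50 reversed, 29 newly passed and 14 no longer passed. The cause was not tested. Depth limits Esr2 and Pgr in testis after P8.

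The share of all genes past the threshold also moved with the setting, so these counts are no result about the members alone. The number of members past the threshold in P8 gubernaculum, INSL3-KI against WT, went from 1 to 2 (DESeq2, no filter, 1 fit, limma + 0.1) and 4 (mesenchyme markers). With mesenchyme markers 72.8% of all genes passed there, against 54.7% in the main fit. For INSL3-KO against WT it went from 0 to 2 (DESeq2, mesenchyme markers) and 1 (library size, no filter, both limma fits), and for INSL3-KI against INSL3-KO from 1 to 0 (both limma fits, replicate block) and 2 (mesenchyme markers). In P23 gubernaculum it went from 1 to 2 (DESeq2, 1 fit, limma + 1). In P8 testis it went from 0 to 4 for INSL3-KI and from 1 to 4 for INSL3-KO (Sertoli markers) or 0 (1 fit). In P23 testis it went from 1 to 2 for INSL3-KI (library size, 1 fit, both limma fits) or 0 (Sertoli markers), and for INSL3-KI against INSL3-KO from 2 to 1 (Sertoli markers). For INSL3-KI testis over age it went from 3 to 0 (replicate block), 2 (limma + 1) and 4 (DESeq2, 1 fit, Sertoli markers), in WT testis over age from 5 to 4 and in P23 INSL3-KO and P40 testis from 2 to 3 (all Sertoli markers), for the gubernaculum interaction from 2 to 1 (replicate block, mesenchyme markers) and for the testis interaction from 2 to 1 (Sertoli markers). With each library left out the counts spanned, in P8 gubernaculum, 1 to 2, 0 to 1 and 0 to 2, in P23 gubernaculum 0 to 2, in P8 testis 0 to 1, 1 to 4 and 0 to 1, in P23 testis 1 to 2, 2 to 2 and 1 to 2, in WT testis over age 4 to 5, in INSL3-KI testis 0 to 4 and in the gubernaculum interaction 0 to 2.

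Directions that turned were, with DESeq2, Gper1 in P40 testis (-0.05), Nr3c1 in P23 gubernaculum (-0.01) and Pgr between tissues (-0.01). With library size they were Nr3c1 in P8 gubernaculum (0.07, 0.1 and 0.03), P8 testis (0.05) and WT gubernaculum over age (-0.11) and Pgr between tissues (-0.41, and 0 with no filter). With limma at + 0.1 and + 1 they were Esr1 (0.05 and 0.05) and Nr3c1 (0.14 and 0.13) in P8 gubernaculum between mutants, Nr3c1 in P8 gubernaculum (0.06 and 0.06), P8 testis (0.09 and 0.08) and WT gubernaculum over age (-0.15 and -0.14), Esr2 in the gubernaculum interaction (0.73 and 0.26), Pgr between tissues (-0.25 and -0.08) and Gper1 in P23 gubernaculum (-0.01 at + 0.1). With the replicate block they were Gper1 in P23 gubernaculum (-0.33) and P23 testis (-0.19) and Nr3c1 in P23 gubernaculum (-0.06). With the block Pgr in the gubernaculum interaction was -5.82 (adjusted p = 0.068).

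With Sertoli markers Esr1 was -0.18 (INSL3-KI over age), 0 (P23, INSL3-KI against INSL3-KO), -0.68 and -0.68 (P23 against WT) and -0.58 (P40), Esr2 was -0.32 (interaction), Gper1 was 1.02, -1.36, -2.4, -2.26, -0.3 and -0.52, and Nr3c1 was 0.95, -0.33, -1.28 and -0.99. With mesenchyme markers Esr1 was 0.43 (P23) and 0.3 (P8 between mutants), Gper1 0.6 (interaction) and Nr3c1 0.42, 0.59 and 0.16 (P8). The lists turned or moved as given in the report.

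Leaving out each library turned Esr1 in P8 gubernaculum, INSL3-KI (-0.02 to 0.25), Gper1 there in INSL3-KO (-0.08 to 0.28) and between mutants (-0.03 to 0.29), Esr2 between mutants (-0.09 to 0.81), Gper1 (-1.32 to 0.45) and Nr3c1 (-0.39 to 0.22) in P23 gubernaculum, Nr3c1 in P8 testis (-0.18 to 0.09), Esr1 (-0.26 to 0.03) and Pgr (-0.43 to 0.03) between P8 testis mutants, Gper1 in P23 testis (-0.85 to 0.49, -0.27 to 0.56 and -1.02 to 0.37), Esr2 there (0 to 1.26), Gper1 at P40 (-0.16 to 0.46), Pgr between tissues (-0.26 to 0.26), Nr3c1 in WT gubernaculum (-0.09 to 0.06) and, in the gubernaculum interaction, Esr2 (-3.41 to 2.15), Gper1 (-1.51 to 0.16) and Nr3c1 (-0.1 to 0.44).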
